A study of Homo sapiens with 2 samples.

Results

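The ABC transporter family was examined in AsPC-1 cells, a human pancreatic ductal adenocarcinoma line, and covered 41 genes of the 19775 genes that the arrays read by at least 1 probe set of their own. Members were all genes with a platform symbol of ABCA, ABCB, ABCC, ABCD, ABCE, ABCF or ABCG followed by a number, read only by probe sets annotated to a single gene, of which there were 92 among 41097 on the array. The symbols put 11 members in subfamily A, 8 in B, 10 in C, 3 in D, 1 in E, 3 in F and 5 in G. The annotated pseudogene ABCC13 was left out. ABC proteins that carry other symbols, such as CFTR and the peptide transporter TAP1 with TAP2, are not members and were read as partners.

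ABC proteins share an ATP-binding cassette that binds and hydrolyses ATP. In most members the cassettes are joined to membrane domains and drive lipids, conjugates, drugs or peptides across a membrane, either as full transporters in a single chain or as half-transporters that pair up, while the E and F subfamilies have cassettes without membrane domains and work at the ribosome. In tumour cells the family is best known for drug efflux by ABCB1, ABCC1 and ABCG2, and in ductal epithelium for conjugate export and for chloride conductance by CFTR.

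The study asked which mRNAs differ in AsPC-1 cells after interference with PGR, the progesterone receptor. There was 1 array of cells given PGR siRNA and 1 array of control cells. Both were of the same line, with no further allele or drug named. The label of the latter says only control, and the study names it negative control without describing a control siRNA for the array. With 1 array per group, no difference here has a replicate, a test or an error estimate. The labels name DMEM with fetal bovine serum for the cultures, and the study's methods name RPMI 1640 for this line. The study lists a pair of PGR duplexes, and the sources do not say which of them was used for the array. Their antisense strands are shown because they are the only sequences that define the treatment, with the seed, bases 2 to 8, in capitals.
si-PGR-1 antisense: uUGCCUCAaaccaauugcctt
si-PGR-2 antisense: uCUUGGGUaauugugcagctt

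The targeted gene went against the labels. The brighter PGR probe set read 73.3 on the array labelled PGR siRNA and 16.1 on the array labelled control, and the other read 4.80 and 1.53 in the same order. None of them reached the signal floor of 97.9, which is the median of all named probe set values and served as the lowest usable signal. The arrays therefore gave no usable level of PGR mRNA, each array is called by its label, and every direction rests on those labels. Of 10 markers of ductal and other simple epithelium, 9 were at or above the floor on both arrays. EPCAM read 20305 on the array labelled PGR siRNA and 20351 on the array labelled control. In the same order KRT7 read 182 and 189, MUC1 174 and 122, and CEACAM6 79.3 and 120. The lowest of the other markers was KRT19, at 9123 and 9974. The list covers simple epithelium in general and does not single out the pancreatic duct. Of 7 acinar and endocrine pancreas markers none reached the floor on either array, and of 8 leucocyte and endothelial markers none reached it on both, with sums of 319 on the array labelled PGR siRNA and 464 on the array labelled control. Of 9 fibroblast and muscle markers COL1A1 and ACTA2 reached it on both, and the list summed to 1056 on the array labelled PGR siRNA and 1095 on the array labelled control.

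Signals are intensities as deposited, and a difference is log2(intensity + 1) on the array labelled PGR siRNA minus the same on the array labelled control, so that a positive value is higher on the array labelled PGR siRNA. Each gene was read by its brightest probe set. Of the 41 members, 24 (58.5%) reached the floor on at least 1 array, against 58.7% of all genes. On both arrays 23 members reached it, as did 54.8% of all genes. Among the 23, differences ran from -0.47 for ABCA5 to 0.38 for ABCB6, with 13 positive and 10 negative, a median of 0.038 and an SD across genes of 0.19. Over the 10840 genes with both values at or above the floor, the median was 0.023 and the SD 0.27. Of the 23 members, 17 (73.9%) lay within 0.2 of no difference, against 61.8% of all such genes. In a culture, fewer cells that express a gene and less of its RNA in each cell cannot be told apart.

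**Figure D1:**
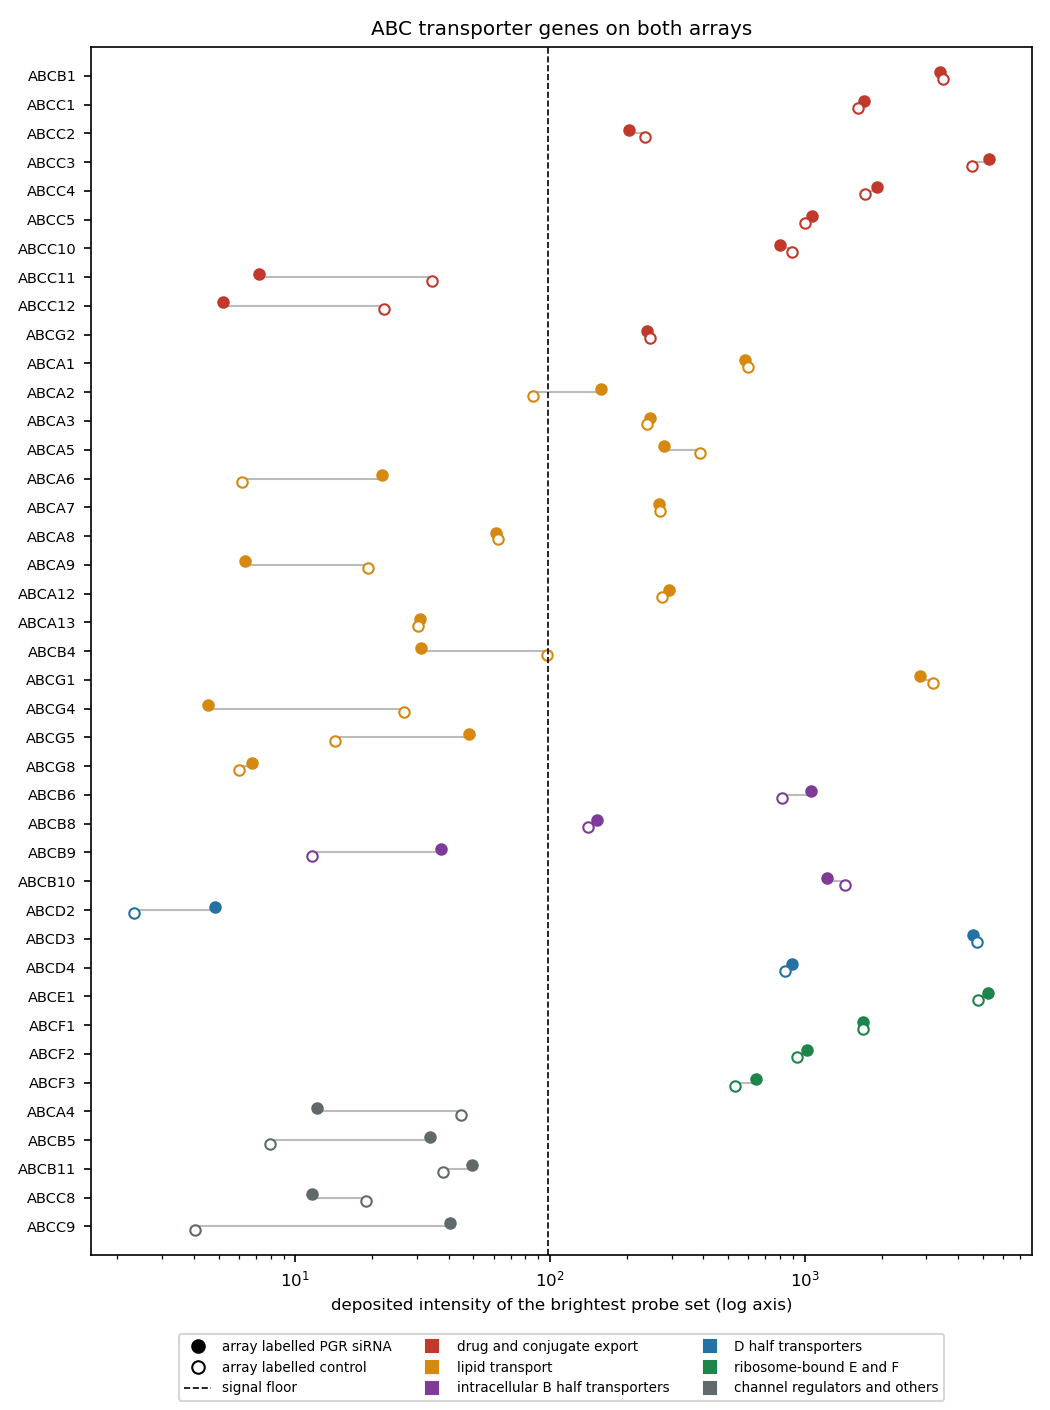
Deposited intensity of the brightest probe set (log axis) of each of the 41 members, grouped by role, with filled circles for the array labelled PGR siRNA, open circles for the array labelled control and a dashed line at the signal floor of 97.9. The 23 genes with both circles at or above the floor have them close together. The gaps wider than 2-fold are all among genes left of the line, where intensities are not read as levels.

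Past the floor on at least 1 array, 1 of 24 members was at least 1.5-fold higher on the array labelled PGR siRNA (ABCA2) and 0 were at least 1.5-fold lower. The background over 11614 genes by the same rule was 3.65% higher and 4.72% lower. At 2-fold there were 0 of 24 in either direction, with a background of 1.11% higher and 1.58% lower. With both values at or above the floor, 0 of 23 members were past 1.5-fold in either direction, where the background was 1.86% higher and 2.31% lower. At these shares a list of 23 genes holds few such genes or none, so the counts of the family are near the background. The scatter between the arrays widened as the signal fell, and every one of the 23 members lay inside the middle 95% of all genes in its own signal class. For mean signals from 97.9 to 300 that range was -0.77 to 0.75, and the 6 members there ran from -0.21 to 0.12. For means of 3000 or more it was -0.35 to 0.34, and the 5 members there, ABCB1, ABCC3, ABCD3, ABCE1 and ABCG1, ran from -0.18 to 0.23.

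**Figure D2:**
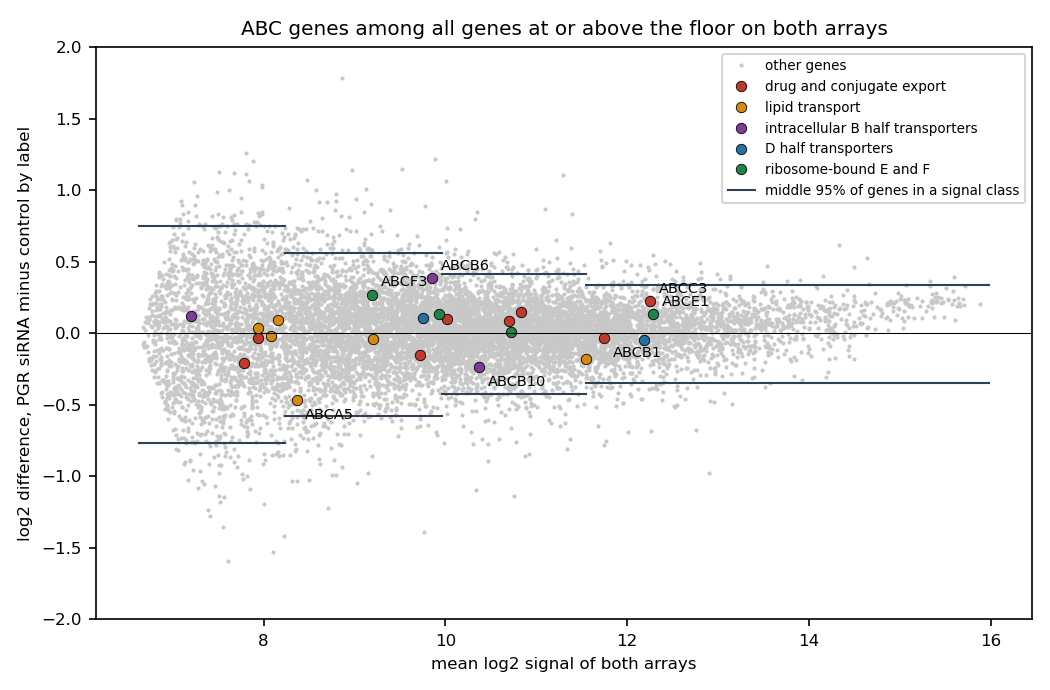
Log2 difference, PGR siRNA minus control by label, against the mean log2 signal for all genes with both values at or above the floor (grey) and for the ABC members (coloured by role), with lines at the middle 95% of all genes by signal class. All 23 members lie between the lines, with ABCA5 lowest at -0.47 and ABCB6 highest at 0.38.

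Start sites give the sequence context of the members. RefSeq promoters of GRCh38.p14 were matched for 33 of the 41 genes (49 start sites, 21 of the 24 genes above the floor) and searched on both strands over the 250 bases before each start. The palindrome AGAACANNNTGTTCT, the element that the progesterone receptor shares with other steroid receptors, was in none of the 49 windows and in 0.00285% of 35116 windows of all genes. Its half-site TGTTCT, which also lies inside the palindrome, was in 6 of 49 windows (ABCA12, ABCB1, ABCB11, ABCD2, ABCG5 and ABCG8), and in 12.4% of all windows. The GC box GGGCGG was in 25 of 49 windows and in 42.6% of all, and CCAAT in 10 of 49 and in 32.0% of all. These matches describe letters and not bound sites. Windows of 4 genes are shown, those of ABCB6 and ABCA5 at either end of the differences, of ABCA2, the single gene past 1.5-fold, and of ABCB1, the one of these with a half-site. All are read along the gene's strand (minus), and capitals mark every TGTTCT or GGGCGG or CCAAT and, for the other strand, every AGAACA or CCGCCC or ATTGG.
ABCB6 chr2:219218959-219219208: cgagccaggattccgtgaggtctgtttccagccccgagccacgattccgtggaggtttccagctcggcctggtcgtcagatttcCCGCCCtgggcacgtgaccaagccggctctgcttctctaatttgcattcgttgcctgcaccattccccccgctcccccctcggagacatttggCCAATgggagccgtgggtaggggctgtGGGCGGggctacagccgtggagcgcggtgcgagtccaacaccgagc
ABCA5 chr17:69327134-69327383: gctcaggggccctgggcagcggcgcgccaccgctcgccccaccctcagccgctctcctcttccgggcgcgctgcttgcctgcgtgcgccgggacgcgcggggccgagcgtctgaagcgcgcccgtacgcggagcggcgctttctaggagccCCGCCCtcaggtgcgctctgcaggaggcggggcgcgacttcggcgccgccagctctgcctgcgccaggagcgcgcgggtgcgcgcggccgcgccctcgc
ABCA2 chr9:137028238-137028487: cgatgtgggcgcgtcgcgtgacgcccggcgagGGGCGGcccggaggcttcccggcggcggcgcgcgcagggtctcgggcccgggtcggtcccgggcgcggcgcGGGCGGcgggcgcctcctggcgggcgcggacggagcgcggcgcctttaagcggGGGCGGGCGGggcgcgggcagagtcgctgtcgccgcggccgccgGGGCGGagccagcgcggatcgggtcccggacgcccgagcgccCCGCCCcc
ABCB1 chr7:87600885-87601134: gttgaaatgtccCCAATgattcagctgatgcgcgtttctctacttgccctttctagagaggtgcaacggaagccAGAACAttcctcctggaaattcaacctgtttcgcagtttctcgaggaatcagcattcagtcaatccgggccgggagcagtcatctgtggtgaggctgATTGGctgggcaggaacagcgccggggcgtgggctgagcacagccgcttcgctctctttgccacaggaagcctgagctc
ABCB6 has 2 GC boxes and 1 CCAAT, ABCA5 has 1 GC box, ABCA2 has 6 GC boxes, a pair of which overlap in one run, and ABCB1 has no GC box, 2 CCAAT and 1 half-site. ABCB1 and ABCA2 have another annotated start, whose window has none of these motifs.

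Exporters of drugs and conjugates had 8 of 10 genes above the floor on both arrays, where 54.8% of all genes were. Of the 8, 4 were positive and 4 negative, with a median of 0.025. It was -0.12 when every probe set of a gene was averaged and -0.087 when only those at or above the floor on both arrays were, each with 3 positive and 5 negative, so the role has no settled sign. ABCB1, P-glycoprotein, which pumps many unrelated drugs out of cells, read 3397 on the array labelled PGR siRNA and 3482 on the array labelled control, a difference of -0.036. A probe set annotated to both ABCB4 and ABCB1 read 3440 and 3397 in the same order, a difference of 0.018. These readings lay close together on both arrays. The second probe set of ABCB1 alone read 124 on the array labelled PGR siRNA and 234 on the array labelled control, a difference of -0.91, so the size of any ABCB1 difference depends on the probe set.

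ABCG2, the breast cancer resistance protein, which exports drugs and urate, read 241 on the array labelled PGR siRNA and 247 on the array labelled control, a difference of -0.035 by its single probe set. ABCC1, an exporter of glutathione and other conjugates, read 1709 on the array labelled PGR siRNA and 1611 on the array labelled control, with a difference of 0.085, and its second probe set differed by -0.011. ABCC2, the apical exporter of bilirubin glucuronides, read 204 on the array labelled PGR siRNA and 235 on the array labelled control, a difference of -0.21. None of these genes was past 1.5-fold by any probe set.

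ABCC3, the basolateral exporter of glucuronides and bile salts, was read by 5 probe sets, all at or above the floor on both arrays. Its brightest probe set read 5291 on the array labelled PGR siRNA and 4526 on the array labelled control, a difference of 0.23. The next read 1458 on the array labelled PGR siRNA and 1947 on the array labelled control, a difference of -0.42, and the remaining ones differed by -0.11, -0.23 and 0.58. The 5 probe sets thus ran from -0.42 to 0.58 with both signs, 2 positive and 3 negative. ABCC4, an exporter of cyclic nucleotides and prostaglandins, read 1914 on the array labelled PGR siRNA and 1728 on the array labelled control by its brightest probe set, a difference of 0.15, while the next ones differed by -0.15 and -0.41 and the last lay below the floor on both arrays. ABCC5, another exporter of cyclic nucleotides, read 1067 and 999 by its brightest probe set in the same order, a difference of 0.095. Its second probe set differed by 0.064, and the third one, with 111 on the array labelled PGR siRNA and 227 on the array labelled control, by -1.03. That reading and the second one of ABCB1 were the only 2 of the 42 member probe sets with both values at or above the floor that were at least 1.5-fold lower, none was at least 1.5-fold higher, and the background over 19569 such probe sets was 3.23% lower and 2.21% higher.

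ABCC10, a broad conjugate pump, read 797 on the array labelled PGR siRNA and 889 on the array labelled control, a difference of -0.16, and 425 and 324 in the same order by its second probe set, a difference of 0.39. Its probe sets thus pointed opposite ways. ABCC11 and ABCC12, adjacent genes on chromosome 16, were below the floor on both arrays, with a highest value of 34.5.

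Transporters of cholesterol, phospholipids and skin lipids were the largest role, with 15 genes, of which 7 were above the floor on at least 1 array and 6 on both. Of these 6, 2 were positive and 4 negative, with a median of -0.030, and over the 5 genes left without probe sets marked for shared sequence the median was 0.034. ABCA1, which loads cholesterol and phospholipid onto apolipoproteins at the cell surface, read 581 on the array labelled PGR siRNA and 598 on the array labelled control, a difference of -0.042, and its second probe set at or above the floor differed by -0.15. ABCG1, which passes cholesterol on to lipoprotein particles, read 2822 on the array labelled PGR siRNA and 3197 on the array labelled control, a difference of -0.18. Its other probe sets differed by 0.044, 0.034 and -0.074. The cholesterol efflux pair thus read slightly lower on the array labelled PGR siRNA by the brightest probe set, and for ABCG1 the others had both signs, with 0.034 by its brightest probe set not marked for shared sequence.

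ABCA5, a lysosomal lipid transporter, had the lowest difference of the 23, with 279 on the array labelled PGR siRNA and 387 on the array labelled control, -0.47 on the log2 scale. Its second probe set lay below the floor on both arrays, with 84.0 on the array labelled PGR siRNA and 34.3 on the array labelled control, in the opposite order. The value of ABCA5 therefore rests on a single usable probe set, and a mean of both probe sets had the opposite sign, 0.40. ABCA2, a lipid transporter of endosomes and lysosomes best known in oligodendrocytes, read 159 on the array labelled PGR siRNA and 85.6 on the array labelled control, which is below the floor. With the control value raised to the floor it was 1.62-fold higher on the array labelled PGR siRNA, and the difference between the readings themselves was 0.88. A higher floor would give a smaller ratio, and ABCA2 reached the floor only on the array where it read higher. Its other probe sets lay below the floor on both arrays, with 7.16 and 2.27 on the array labelled PGR siRNA and 17.2 and 12.7 on the array labelled control, and so had the opposite order. The direction of ABCA2 came from 1 probe set, and a mean of all its probe sets had the opposite sign, -0.78.

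ABCA3, which loads surfactant lipid into lamellar bodies of the lung, read 248 on the array labelled PGR siRNA and 241 on the array labelled control, a difference of 0.038. ABCA7, a phospholipid transporter with a role in phagocytosis, read 267 on the array labelled PGR siRNA and 270 on the array labelled control, a difference of -0.018 that turned positive under loess scaling. ABCA12, the lipid carrier of the skin barrier, read 293 on the array labelled PGR siRNA and 275 on the array labelled control, a difference of 0.094. Each of these 3 genes had 1 probe set and nearly equal values. The other 8 lipid genes lay below the floor on both arrays. They were ABCA6, ABCA8 and ABCA9, adjacent on chromosome 17, the sterol half-transporters ABCG5 and ABCG8, adjacent on chromosome 2, and ABCA13, ABCB4 and ABCG4. ABCB4, the bile phosphatidylcholine floppase and a neighbour of ABCB1 on chromosome 7, came nearest to the floor, with 31.2 on the array labelled PGR siRNA and 97.5 on the array labelled control.

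Half-transporters of subfamily B in mitochondria and other organelles had 3 of 4 genes above the floor on both arrays. ABCB6, a porphyrin transporter, had the highest difference of the 23, with 1056 on the array labelled PGR siRNA and 810 on the array labelled control, a difference of 0.38. Its second probe set read 33.4 and 6.23 in the same order, below the floor on both arrays, and raised the difference to 1.32 when averaged in. ABCB10, an inner membrane half-transporter that red cell precursors need to make haem, read 1218 on the array labelled PGR siRNA and 1440 on the array labelled control, a difference of -0.24 by its single probe set. These mitochondrial or porphyrin-linked genes thus pointed opposite ways. ABCB8, which takes part in mitochondrial iron export in mouse heart, read 153 on the array labelled PGR siRNA and 140 on the array labelled control, a difference of 0.12, and ABCB9, a lysosomal peptide transporter, stayed below the floor by all 3 of its probe sets.

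Half-transporters of subfamily D above the floor read nearly alike on both arrays by their brightest probe sets. ABCD3, which brings branched and dicarboxylic acyl chains into the peroxisome, read 4574 on the array labelled PGR siRNA and 4727 on the array labelled control, a difference of -0.047, and its second probe set read 583 and 743 in the same order, a difference of -0.35. ABCD4, which releases vitamin B12 from the lysosome, read 893 on the array labelled PGR siRNA and 832 on the array labelled control, a difference of 0.10. The second ABCD4 probe set read 70.6 and 77.4 in the same order, below the floor on both arrays, a difference of -0.13. ABCD2, the carrier of very long chain acyl groups, lay far below the floor, with 4.83 on the array labelled PGR siRNA and 2.33 on the array labelled control.

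Ribosome-bound members were the only role in which all genes were above the floor on both arrays and all differences were positive, with a median of 0.13 over 4 genes. Of all genes, 54.8% were above the floor on both arrays, and the median difference of those was also positive, at 0.023. The share of all genes with a positive difference was not counted. ABCE1, which splits ribosomes after termination, read 5233 on the array labelled PGR siRNA and 4779 on the array labelled control, a difference of 0.13, and its second probe set differed by 0.16. ABCF3, related to the yeast GCN20 protein of amino acid sensing, read 643 on the array labelled PGR siRNA and 534 on the array labelled control, a difference of 0.27. ABCF2 read 1021 on the array labelled PGR siRNA and 932 on the array labelled control, a difference of 0.13, with probe sets at 0.28 and -0.22. ABCF1, which binds the initiation factor eIF2, read 1694 on the array labelled PGR siRNA and 1687 on the array labelled control, a difference of 0.0058. The shared sign was not firm for 2 of the 4, since ABCF1 turned negative under loess and ABCF2 under the mean of all probe sets and without probe sets marked for shared sequence, where the median of the genes left in this role was -0.11.

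Channel regulators and transporters of single tissues were not detected. None of 5 genes reached the floor on either array. They were ABCA4 of photoreceptors, ABCB5 of melanocytes and limbal stem cells, ABCB11, the bile salt export pump of hepatocytes, and ABCC8 and ABCC9, the sulphonylurea receptors of ATP-sensitive potassium channels, and the highest value of their brightest probe sets was 49.2. Over the 17 members below the floor on both arrays, differences ran from -2.32 to 3.04, and 11 were past 2-fold, 5 higher and 6 lower on the array labelled PGR siRNA. Over all 41 members these 11 were 5 higher, where 9.08% of all genes were past 2-fold higher with no floor, and 6 lower, where 10.9% were. Signals below the floor are not read as levels, and no fold is taken from them.

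**Figure D3:**
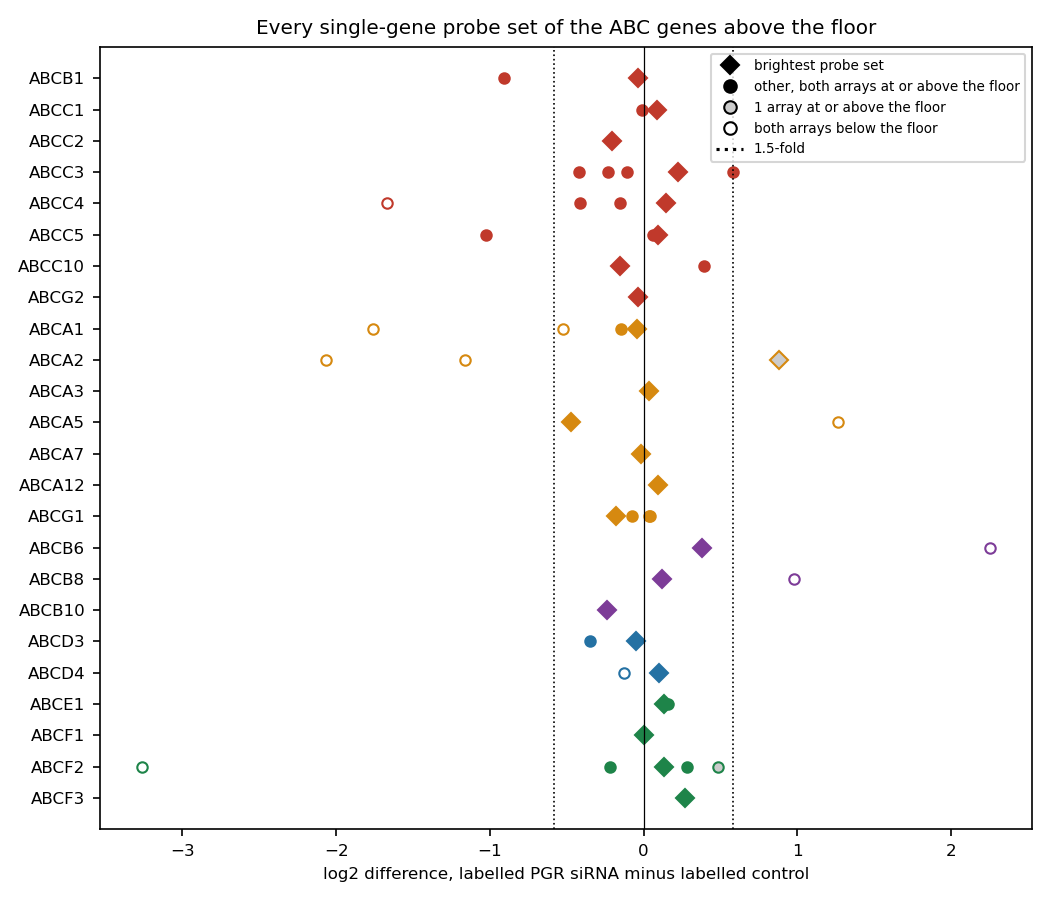
Log2 difference, PGR siRNA minus control by label, of every single-gene probe set of the 24 members above the floor, with diamonds for the brightest probe set, filled circles for others with both values at or above the floor, grey fill for 1 value there and open circles for none. Dim probe sets scatter to -3.26 and 2.25, and the brightest ones lie between -0.47 and 0.38 except ABCA2 at 0.88.

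Probe sets of the same gene measured how far a difference depends on where the gene is read. Of 11 members with at least 2 probe sets at or above the floor on both arrays, 4 had the same sign in all of them (ABCA1, ABCB1, ABCD3 and ABCE1), and 45.1% of all genes with several such probe sets did. The SD between probe sets of a gene was 0.35 in these members and 0.26 over 5203 genes. The closest readings were those of ABCE1, at 0.13 and 0.16, and the widest those of ABCC5, from -1.03 to 0.095. The 0.35 was larger than the SD of 0.19 across the 23 members, but it takes in dimmer probe sets, and the 0.19 only the brightest ones. Over all genes the SD between probe sets, 0.26, was near the SD across genes, 0.27. Under 4 other scalings 21 of the 23 signs held, the 2 that turned were ABCA7 and ABCF1, and no value moved by more than 0.040.

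Partners of the family were read from 7 lists of 104 genes, of which 91 were measured and 81 were above the floor on both arrays. None of the 81 was at least 1.5-fold higher or lower by its brightest probe set, where the background was again 1.86% and 2.31%. Other probe sets with both values at or above the floor did pass 1.5-fold, at 0.70 for TAPBPL, 0.69 for RXRA and -0.62 for SLC25A37. The brightest probe sets of these genes differed by -0.21, 0.0045 and -0.060. Over all such single-gene probe sets, 2.21% were at least 1.5-fold higher and 3.23% lower. ABC proteins with other symbols and their chaperones had a median of 0.076 over 5 genes, which became -0.16 with the mean of all probe sets and 0.23 with the mean of those at or above the floor. CFTR, the epithelial chloride channel, read 1276 on the array labelled PGR siRNA and 1122 on the array labelled control, a difference of 0.18. TAP1 differed by -0.16 by its single probe set and TAP2 by 0.11 by its brightest, so the chains of the peptide transporter had opposite signs by these readings. Another TAP2 probe set read 248 on the array labelled PGR siRNA and 174 on the array labelled control, a difference of 0.51. A further one read 27.3, below the floor, and 128 in the same order, so the TAP2 value depends on the probe set.

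Genes of cholesterol efflux and of the LXR receptors, which switch on ABCA1 and ABCG1, had a median of 0.15 over 10 genes, which ranged from 0.094 to 0.19 under the alternatives. NR1H3, which encodes LXR alpha, read 564 on the array labelled PGR siRNA and 401 on the array labelled control, a difference of 0.49, the highest of the list. SREBF1, the sterol and fatty acid regulator, was lowest at -0.17 by its brightest probe set, while its second probe set differed by 0.25. The brightest probe sets of the efflux transporters ABCA1 and ABCG1 had the opposite sign to NR1H3. Haem and iron-sulphur genes had a median of -0.012 over 18 genes (-0.060 to 0.010 under the alternatives), from CPOX at -0.29 to FECH at 0.48. FECH, which inserts iron into protoporphyrin, read 6692 on the array labelled PGR siRNA and 4789 on the array labelled control by its brightest probe set. By these readings FECH and ABCB6 stood at the upper ends of their groups, and CPOX, which makes protoporphyrinogen, stood at the lower end. The other FECH probe sets, at or above the floor on both arrays, differed by -0.19 and 0.13.

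Peroxisome genes had a median of -0.031 over 16 genes, which became 0.057 with the mean of all probe sets, and ran from PEX10 at -0.42 to PEX5 at 0.55. PEX5, the import receptor, read 1325 on the array labelled PGR siRNA and 903 on the array labelled control. Partners of ABCE1 and ABCF1 in ribosome rescue and initiation had a median of 0.14 over 15 genes, from GSPT1 at -0.25 to GSPT2 at 0.27. That median was 0.032 when every probe set was averaged, 0.060 when only those at or above the floor were, and 0.015 over the 10 genes left without probe sets marked for shared sequence. Most of the list had a mean signal of 3000 or more, a class in which the median of all genes was 0.041. Xenobiotic receptors, glutathione genes and organic ion carriers had a median of -0.0021 over 14 genes (-0.042 to 0.041 under the alternatives), from the uptake carrier SLCO2B1 at -0.47 to the vault protein MVP at 0.27. Partners of ABCC members had a median of -0.10 over 3 genes, which was -0.25 with either mean of probe sets and -0.39 without probe sets marked for shared sequence, with NT5E, which makes adenosine, lowest (2236 on the array labelled PGR siRNA and 3076 on the array labelled control) and NHERF1, a scaffold of CFTR, highest at 0.30.

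**Figure D4:**
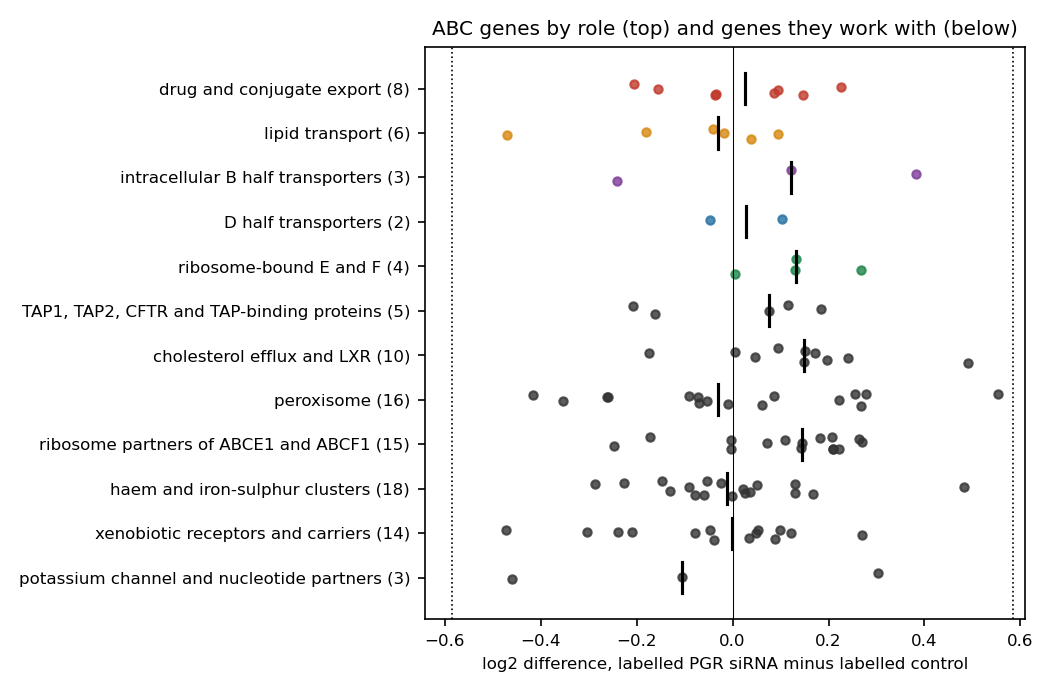
Log2 difference, PGR siRNA minus control by label, of each gene with both values at or above the floor, for the roles of the ABC members and for the partner lists, with a bar at each median. Medians lie between -0.10 and 0.15 by the brightest probe set, and no gene passes 1.5-fold by that probe set. The 4 ribosome-bound genes are all at or right of 0 (ABCF1 left of it under loess, ABCF2 with the mean over all its probe sets).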

How the data were processed

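AsPC-1 cells given PGR siRNA and control AsPC-1 cells were measured on 1 Affymetrix 3' expression array each. The authors deposited linear intensity values, 1 per probe set and array, and the algorithm and scaling are not given in the sources used here. Trimmed means (2% off each end) were 500.1 on both arrays, so a common scaling came before deposition. The number of arrays limits the precision.

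Probe sets were named from the platform annotation: 41097 with 1 symbol, 1801 with several and 11777 with none, the last 2 kinds left out. Symbols of 41043 were updated through RefSeq GRCh38.p14. Differences were taken on log2(intensity + 1), with each gene read by its brightest probe set on that scale. All members at or above the floor on at least 1 array, and the lowest and highest gene of each partner list, were named, and other genes were added after their values were seen. Members and lists were chosen with earlier results of these data known. Alternatives changed the probe set rule, scaling, offset (16), floor and fold. The calculation was tested on simulated data with equal noise at every signal and the same fold in all probe sets of a gene. The real arrays differ in both respects, so that test checks the code and not the precision of the differences. Sequences of siRNAs are from the study's supplement. Versions were statsmodels 0.14.6 and scipy 1.17.1 (loess and statistics), pandas 2.3.3 with numpy 2.4.6 (tables), matplotlib 3.10.9 (plots) and Python 3.11.15.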

Additional observations from a re-analysis of the deposited data

How the results depend on the processing

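Averaging every probe set of a gene gave 1 member at least 1.5-fold higher, ABCB6 in place of ABCA2, and 2 at least 1.5-fold lower, ABCA1 and ABCA2, turned ABCA2 to -0.78 and made the median -0.016, against 0.062 over the 24 members above the floor. This rule takes in probe sets below the floor. Shares of all genes past a fold were taken only by the brightest probe set, without rescaling, at the main floor or with no floor. Counts under the other alternatives have no background beside them. The mean of only the probe sets at or above the floor on both arrays, chosen after seeing the data, gave a median of 0.0083. The higher count was 0 with a floor at the 75th percentile (623, 15 members), with both arrays above the floor, without probe sets marked for shared sequence (17 members) and with a 2-fold rule. It was 1, ABCA2, under median centring, quantile normalization, loess, the offset of 16 and an olfactory receptor floor of 123. The control value of ABCA2, 85.6, lies below that floor too and was not raised to it there, so its fold was not bounded by it. With no signal filter 7 of 41 members were higher and 7 lower, where 14.0% and 16.6% of all genes were. Of 271 values of the 24 members under alternatives, 255 moved by less than the SD between probe sets of a gene (0.26) and 16 by that or more. The sign turned in 14 of the 271, in 10 genes. Averaging every probe set turned 7, namely ABCA2, ABCA5 (0.40), ABCC4 (-0.52), ABCC5 (-0.29), ABCC10 (0.12), ABCD4 (-0.014) and ABCF2 (-0.52). The mean of those at or above the floor turned ABCC4 (-0.14), ABCC5 (-0.29) and ABCC10 (0.12), loess turned ABCA7 and ABCF1, and leaving out shared-sequence probe sets turned ABCF2 (-0.22) and ABCG1 (0.034). No paired analysis was possible because each group has 1 array. Signal limits what can be read: 17 members have no value above the floor.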

Other observations

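A few partners of the family were above the floor on 1 array only and were picked out after their values were seen. SLCO2A1, a prostaglandin uptake carrier, read 23.7 on the array labelled PGR siRNA and 125 on the array labelled control. PDZK1, a scaffold of apical transporters, read 95.6 on the array labelled PGR siRNA and 147 on the array labelled control. ENPP1, which makes extracellular pyrophosphate, read 98.6 on the array labelled PGR siRNA and 56.4 on the array labelled control. In each case 1 of the 2 values lies below the floor of 97.9. The probe set shared by ABCB8 and its neighbour ASIC3 read 12.6 on the array labelled PGR siRNA and 10.1 on the array labelled control, below the floor on both.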
